A study of Mus musculus with 20 samples.

Results

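A set of 8 genes of sugar handling in fat (of 18193 genes with a probe set of 1 symbol) were followed through the arrays of mouse visceral fat. They are the hexose transporters Slc2a4 and Slc2a5, the hexokinase Hk2, the glycogen synthases Gys1 and Gys2, the pyruvate kinase Pklr, the pyruvate carboxylase Pcx and the phosphoenolpyruvate carboxykinase Pck1. Where a gene had several probe sets, the one used was chosen by its mean log2 intensity across the 20 arrays, the highest being taken without regard to group. The genes themselves were chosen with diet differences of these arrays known. The mice were C57BL/6J females with no altered gene, 5 to a group and 1 array to a mouse: HF pregnant, HF non pregnant, control pregnant and control non pregnant. HF mice ate a diet with 58% fat and control mice one with 10% fat from youth, begun weeks before the pregnant groups were mated with males kept on chow, and the pregnant mice were studied at E18.5, late gestation. By the study's methods the HF diet held sucrose and the control diet corn starch, so the amount of fat and the kind of carbohydrate cannot be told apart. The labels also give E18.5 as the age of the non pregnant mice, so age says nothing of pregnancy here. The labels call the tissue visceral fat, a term that the study uses for gonadal and mesenteric fat, and mesenteric is the depot named in its legend to the arrays. The arrays address how diet and pregnancy together shape gene expression in this depot.

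In fat cells insulin moves the glucose transporter GLUT4, the product of Slc2a4, to the cell surface, while GLUT5, the product of Slc2a5, carries fructose. Hexokinase 2 traps glucose as glucose 6-phosphate, which glycogen synthase can store or glycolysis can carry on to pyruvate. Pyruvate carboxylase turns pyruvate into oxaloacetate, and phosphoenolpyruvate carboxykinase takes oxaloacetate towards glycerol 3-phosphate when glucose is scarce, a route called glyceroneogenesis that supplies the backbone of stored triglyceride. Gys1 is known as the glycogen synthase of muscle and most tissues and Gys2 as that of liver, and Pklr encodes the pyruvate kinase of liver and red cells.

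RefSeq windows before the transcription start (build GRCm38.p6, 250 bases each, read along the gene's strand) were at hand for 6 of the 8 genes, in 8 windows. They are shown for Pck1, Pcx and Pklr because these stand at the pyruvate end of the pathway, with a mean that was higher for the first and lower for the other two in HF than in control mice at term, and for Slc2a5 as a window with no match. Capitals mark the match to a motif searched on both strands.
Pck1, chr2:173152823-173153072, plus strand: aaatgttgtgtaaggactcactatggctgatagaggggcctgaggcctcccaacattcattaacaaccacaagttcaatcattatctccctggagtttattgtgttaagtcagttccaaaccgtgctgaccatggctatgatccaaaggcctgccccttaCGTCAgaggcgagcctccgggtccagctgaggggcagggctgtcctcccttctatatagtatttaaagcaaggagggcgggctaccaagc
Pcx, chr19:4510222-4510471, plus strand: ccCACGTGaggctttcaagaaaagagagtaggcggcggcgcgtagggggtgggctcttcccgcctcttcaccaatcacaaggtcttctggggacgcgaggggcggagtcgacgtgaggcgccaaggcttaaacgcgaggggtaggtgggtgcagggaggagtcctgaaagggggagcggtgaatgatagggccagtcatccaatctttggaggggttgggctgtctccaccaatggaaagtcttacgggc
Pklr, chr3:89136373-89136622, plus strand: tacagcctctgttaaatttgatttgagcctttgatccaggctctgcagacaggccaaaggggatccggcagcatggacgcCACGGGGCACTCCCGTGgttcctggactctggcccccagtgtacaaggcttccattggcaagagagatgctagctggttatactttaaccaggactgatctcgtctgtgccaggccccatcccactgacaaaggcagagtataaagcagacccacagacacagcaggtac
Slc2a5, chr4:150119094-150119343, plus strand: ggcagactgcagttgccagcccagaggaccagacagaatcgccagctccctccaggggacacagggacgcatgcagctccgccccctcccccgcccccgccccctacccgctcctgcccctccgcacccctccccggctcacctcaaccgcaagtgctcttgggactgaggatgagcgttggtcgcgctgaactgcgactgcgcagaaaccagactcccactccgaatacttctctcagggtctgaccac
In the Pck1 window the cyclic AMP response core TGACG lies on the minus strand, 90 to 86 bases before the start. An element of this kind is known from the Pck1 promoter of rat. In the Pcx window the E-box CACGTG lies 248 to 243 bases before the start. In the Pklr window the match is to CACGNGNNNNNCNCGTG, a carbohydrate response element, 170 to 154 bases before the start. This element is known from the liver promoter of rat Pklr, and it was searched after the window had been seen. The Hk2 window (chr6:82774455-82774704, minus strand) held TGACG on its minus strand 50 to 46 bases before the start, and the other Pklr window held AGGTCA, part of sites that nuclear receptors bind, on its minus strand 151 to 146 bases before the start. None of these matches overlapped another. The share of all 32851 windows of this length that held each motif was 17.8% for TGACG, 6.02% for CACGTG, 14.0% for AGGTCA and 0.0396% (13 windows) for the carbohydrate response element. The forkhead site TGTTTAC, found in 3.17% of windows, was in none of these 8, and the Slc2a5 and Gys1 windows and the second Pcx window held none of the motifs.

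Array medians lay between 60.7 and 64.7 units of intensity, and an intensity of 100 is a level that the study called arbitrary and used to leave low genes out of its plots and pathway lists. It is not a detection limit. The 6 adipocyte markers with a probe set exceeded 100 units in every mouse, but their levels varied between mice. Adipoq lay at 14336 to 24630 units, Fabp4 at 20803 to 29937 and Retn at 6876 to 18879. Cidec lay at 2130 to 10133.5 units, Lipe at 847 to 3880 and Lep at 163 to 3877. The arrays of control pregnant mouse 2 and control non pregnant mouse 4 stood apart with summed intensities of pancreatic acinar markers of 63421 and 54407 units, against 560.4 to 4196 in the other 18. Albumin and other liver markers were highest in HF non pregnant mice 1 and 2. In a piece of tissue, fewer cells of a type and less RNA per cell cannot be told apart. All 8 genes passed the filter of more than 100 units in at least 5 of 20 arrays, but not equally. Slc2a4, Hk2, Gys1, Pck1 and Pcx exceeded 100 units in all 20 mice, Gys2 in 14, Pklr in 10 and Slc2a5 in 5, all of them control mice. A gene that passes only through the group in which it is high is bound to differ, so the number of genes that passed says nothing about diet.

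**Figure D1:**
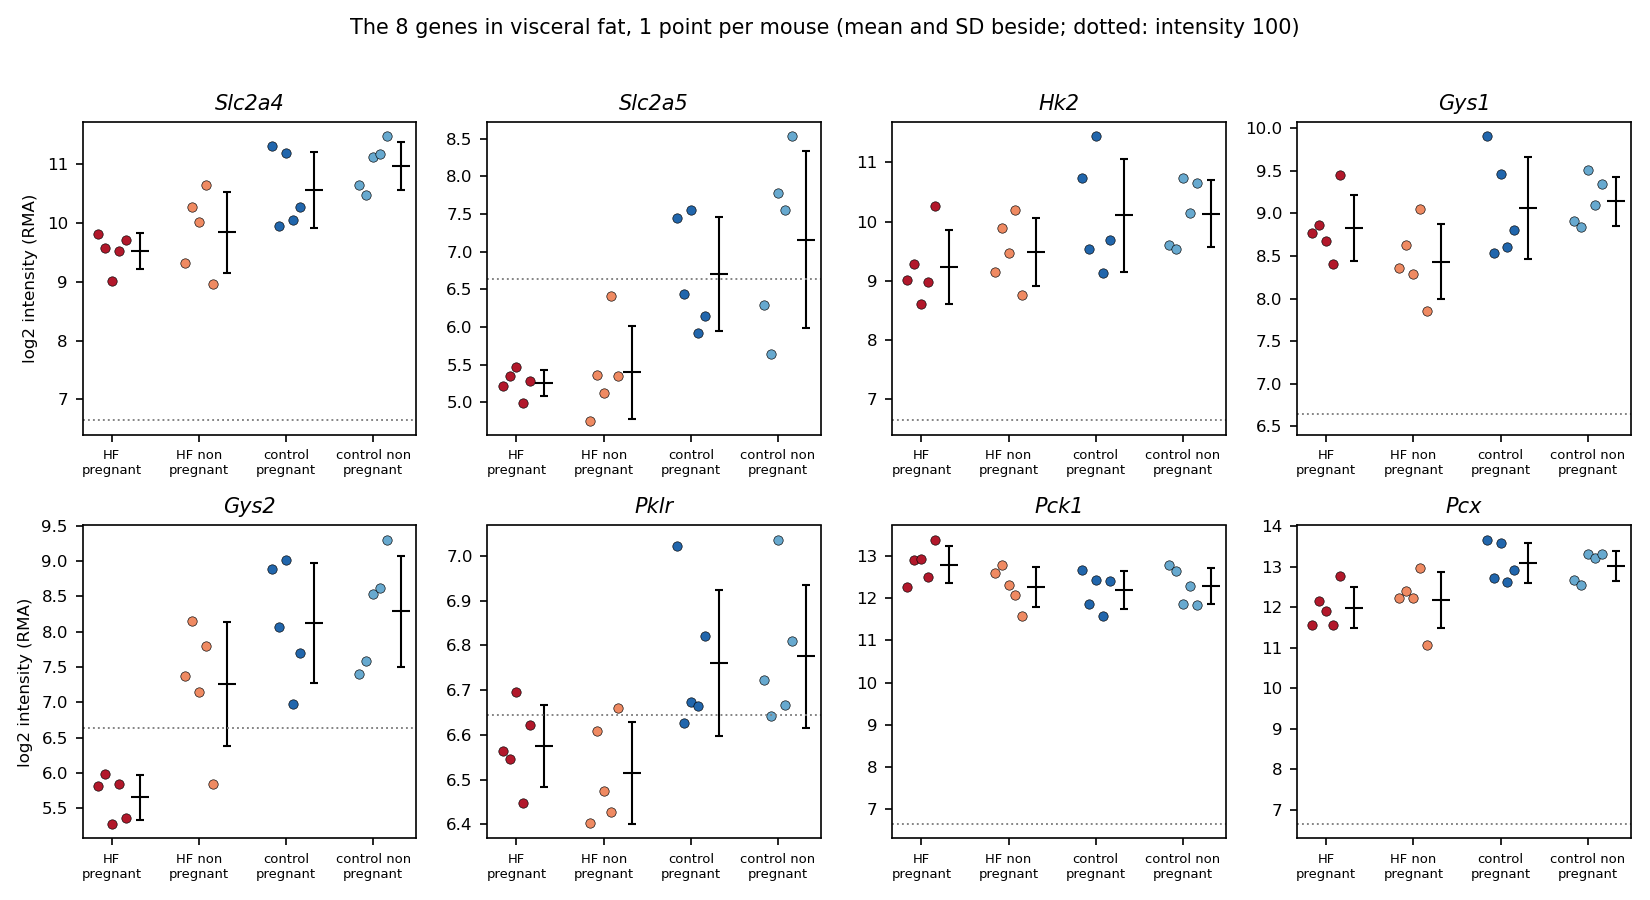
Log2 intensity of the 8 genes (vertical axis, RMA values) in HF pregnant, HF non pregnant, control pregnant and control non pregnant mice; each point is a mouse, the bar beside it the group mean with SD (n = 5), and the dotted line an intensity of 100 units. All 5 HF pregnant mice lie below all 5 control pregnant mice for Slc2a4, Slc2a5 and Gys2, and Pck1 is the gene with its highest mean in HF pregnant mice.

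The comparison of diets in pregnant mice asks which of these genes differed at term with HF feeding. One of the 8 genes, Gys2, fell in HF pregnant mice relative to control pregnant mice, and none rose (limma, Benjamini-Hochberg over 19802 probe sets). Over all probe sets 0.177% were called lower and 0.0151% higher (0.192% in all). For 3 genes, Slc2a4, Slc2a5 and Gys2, every HF pregnant mouse lay below every control pregnant mouse, a pattern that 1.95% of all probe sets showed. At an unadjusted p under 0.05, 5 of the 8 were lower and 1, Pck1, was higher, against 7.93% and 4.9% of all probe sets. Averaged over pregnancy, HF feeding lowered 4 of the 8 (Slc2a4, Slc2a5, Gys2 and Pcx) and raised none, where 1.11% of all probe sets were called lower and 0.136% higher (1.24% in all). Of these, Slc2a5 passed the filter through control mice alone, so that its call says nothing beyond its values. Gys2 exceeded 100 units in all control mice, in 4 HF non pregnant mice and in no HF pregnant mouse. It too needed control mice to pass the filter, which limits what its calls show. These genes were taken up with earlier results of the same arrays known, Gys2 and Slc2a5 for their diet differences, so the counts describe them and do not show that sugar handling stands out.

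In non pregnant mice none of the 8 passed the adjusted test (0% of all probe sets did). All 8 had lower means in HF non pregnant than in control non pregnant mice, as did 5472 of 10603 genes tested. For Pck1 this difference was -0.02, and its sign changed in some alternatives. At an unadjusted p under 0.05, 6 of the 8 were lower, where 7.22% of all probe sets were lower at that level. The smallest adjusted p of any probe set in this comparison was 0.2811. With pregnancy on the HF diet none of the 8 passed (0.0252% of all probe sets did), and Gys2 was the 1 gene with an unadjusted p under 0.05, lower like 2.45% of all probe sets. With pregnancy on the control diet none passed (0% of all probe sets) and 0 had an unadjusted p under 0.05, where 1.38% of all probe sets were higher and 1.52% lower at that level. None passed for the difference between diets in the response to pregnancy (0% of all probe sets), where 1 was negative at an unadjusted p under 0.05 as were 1.73% of all probe sets. None passed for pregnancy averaged over diet (0.0101% of all probe sets), where 1 was lower at that level as were 2.51%.

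**Figure D2:**
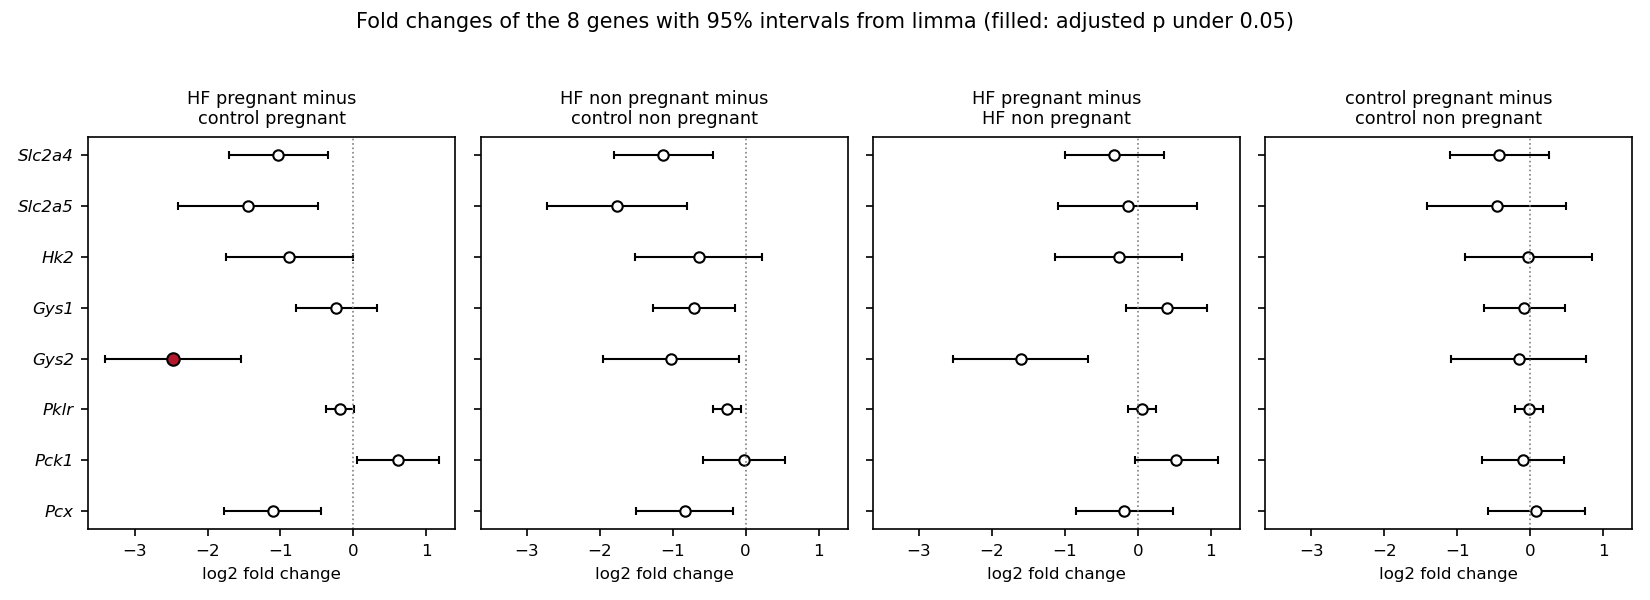
Log2 fold changes of the 8 genes (horizontal axis) with 95% intervals from limma in the 4 comparisons of groups; filled points have an adjusted p under 0.05. Gys2 in HF pregnant against control pregnant mice, at -2.48, is the filled point, and in the comparison of control pregnant with control non pregnant mice all 8 intervals include 0.

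Slc2a4 is the insulin-responsive glucose transporter gene of fat and muscle. Its intensity was 894, 759, 519, 734 and 834 units in HF pregnant mice 1 to 5, against 2526, 987, 2330.2, 1060.3 and 1234 units in control pregnant mice. The lowest control pregnant mouse was above the highest HF pregnant mouse. It was 640.05, 1234, 1039, 1598 and 499.85 units in HF non pregnant mice, against 1595, 1414, 2210.5, 2299 and 2839 units in control non pregnant mice. Here HF non pregnant mouse 4 alone reached into the control range. The log2 fold change was -1.03 ± 0.32 (SE, adjusted p = 0.2097) between the pregnant groups and -1.13 ± 0.32 (adjusted p = 0.2811) between the non pregnant groups. Averaged over pregnancy it was 2.11-fold lower with HF feeding (log2 -1.08 ± 0.23, adjusted p = 0.02945). The second probe set of Slc2a4 followed the first (r = 0.992 over 20 arrays, a description) with differences of -1.08 and -1.09 in pregnant and non pregnant mice. The call for the average was lost without any of 11 single mice, with adjusted p up to 0.07258 and log2 fold changes of -1.10 to -0.97. These were HF pregnant mice 2, 3 and 4, HF non pregnant mice 1, 3 and 5, control pregnant mice 1 and 3, and control non pregnant mice 3, 4 and 5.

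Slc2a5, the fructose transporter gene, was near or below 100 units in most mice. Its intensity was 37.1, 40.7, 44.1, 31.8 and 38.8 units in HF pregnant mice, against 174, 86.8, 188, 60.8 and 70.6 units in control pregnant mice. It was 27.0, 41.2, 34.8, 85.1 and 40.8 units in HF non pregnant mice, against 78.3, 50.04, 220.1, 188 and 371 units in control non pregnant mice. No HF mouse reached 100 units, and 2 control pregnant and 3 control non pregnant mice did. The log2 fold change was -1.44 ± 0.46 (adjusted p = 0.2149) between the pregnant groups and -1.76 ± 0.46 (adjusted p = 0.2811) between the non pregnant groups. Averaged over pregnancy the fitted value was -1.60 ± 0.32 (adjusted p = 0.02491), which rests on HF intensities that were all under 100 units, in a gene tested only because control mice passed the filter. With every HF mouse taken at 100 units and control mice as measured, Slc2a5 was at least 1.22-fold lower with HF feeding. With intensities under 100 set to 100, in control mice too, the average over pregnancy came to -0.57, short of the threshold (adjusted p = 0.1032). The call was also lost without HF pregnant mouse 2, 3 or 4 or HF non pregnant mouse 1, 3 or 5 (adjusted p 0.05038 to 0.06291), and without any of the 5 control mice over 100 units the gene fell under the filter and was not tested.

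Hk2, the hexokinase of insulin-sensitive tissues, had wide and overlapping ranges. It lay at 391 to 1229 units (median 515) in HF pregnant mice, against 559.9 to 2783 (median 825) in control pregnant mice. It lay at 433 to 1168 units (median 709.8) in HF non pregnant mice, against 742 to 1709 (median 1137) in control non pregnant mice. HF pregnant mouse 5, at 1229 units, was above 3 of the control pregnant mice. The log2 fold change between the pregnant groups was -0.88 ± 0.42 (adjusted p = 0.3844) and between the non pregnant groups -0.64 ± 0.42 (adjusted p = 0.3256), and the average did not pass either (-0.76 ± 0.29, adjusted p = 0.1199).

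Gys2, the liver form of glycogen synthase, showed the lowest adjusted p of the 8 genes. Its intensity was 56.1, 63.1, 38.8, 57.3 and 41.0 units in HF pregnant mice, against 473, 267, 518, 126 and 209 units in control pregnant mice. It was 165, 284, 141, 222 and 57.7 units in HF non pregnant mice, against 169.8, 191, 370.4, 391 and 631 units in control non pregnant mice. All 5 HF pregnant mice were under 100 units, as was HF non pregnant mouse 5, and every control mouse was above it. From the lowest up, the group means were log2 5.65 ± 0.31 in HF pregnant mice, 7.26 ± 0.88 in HF non pregnant mice, 8.13 ± 0.85 in control pregnant mice and 8.29 ± 0.79 in control non pregnant mice (SD, n = 5 each). Between neighbours in that order only the lowest step, 1.61, exceeded the larger SD, and even there HF non pregnant mouse 5 lay inside the HF pregnant range.

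Between the pregnant groups Gys2 was lower in HF mice, with a fitted log2 difference of -2.48 ± 0.44 (95% interval -3.40 to -1.55, adjusted p = 0.01971). As all 5 HF pregnant mice were under 100 units, the fold is given as a bound, at least 2.8-fold lower with these mice taken at 100 units. Between the non pregnant groups the difference was -1.02 ± 0.44 (adjusted p = 0.2811), and averaged over pregnancy it was -1.75 ± 0.31 (adjusted p = 0.01716). HF pregnant mice were at -1.61 ± 0.44 relative to HF non pregnant mice (adjusted p = 0.4723), and control pregnant mice at -0.16 ± 0.44 relative to control non pregnant mice (adjusted p = 0.9738). The difference between diets in the response to pregnancy, -1.45 ± 0.63, did not pass (unadjusted p = 0.0322, adjusted p = 0.9332), so the larger diet difference in pregnant mice is not shown to differ from that in non pregnant mice. With intensities under 100 set to 100 the difference between the pregnant groups was -1.48 and lost the call (adjusted p = 0.1421). The call was also lost without HF pregnant mouse 1, 3, 4 or 5 or control pregnant mouse 1 or 3, where the difference was -2.52 to -2.25 (adjusted p 0.05082 to 0.09331). Averaged over pregnancy Gys2 passed without any single mouse in turn (adjusted p 0.007619 to 0.04773). This average rests in part on HF intensities under 100 units. With intensities under 100 set to 100 it was -1.18 and passed narrowly (limma, adjusted p = 0.04966).

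Since Gys2 is the liver form, liver markers are given beside it. Of 8 listed markers, 7 had a probe set and 3 passed the filter. The summed intensity of the 7 was 349.9 to 1104 units in HF pregnant mice, 496 to 12487 in HF non pregnant mice, 535 to 1397 in control pregnant mice and 421 to 1204 in control non pregnant mice. The highest sums, 12487 and 3329 units, were in HF non pregnant mice 1 and 2, whose Gys2 intensities were 165 and 284 units. The first lay below the lowest control non pregnant mouse (169.8 units) and the second inside the range of that group. Fgb and Ahsg had medians of 17.9 and 24.8 units and exceeded 100 units in 1 array each (highest 233 and 236). Medians of Apoa1, Apoa2 and Ttr were 49.4, 65.65 and 97.9 units. Alb had a median of 135 units (highest 9042) and exceeded 100 units in 13 arrays. Apoc3 had a median of 197 units (highest 977) and exceeded 100 units in 16 arrays. The mean of the 3 that passed had within-group r of 0.46 with Gys2, and 0.125 to 0.37 with the other 7 genes (20 mice, a description). The part of liver markers in the diet difference of Gys2 was not tested.

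Gys1, the form of muscle and most tissues, was above 200 units in every mouse. It lay at 339 to 697 units (median 435) in HF pregnant mice, against 372 to 962 (median 448) in control pregnant mice. It lay at 231 to 529 units (median 328) in HF non pregnant mice, against 459.7 to 729 (median 548) in control non pregnant mice. The log2 fold change was -0.23 ± 0.27 (adjusted p = 0.6703) between the pregnant groups and -0.71 ± 0.27 (adjusted p = 0.2811) between the non pregnant groups. The medians of the pregnant groups were close, and in non pregnant mice HF mouse 4 alone reached into the control range.

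Set against each other within each mouse, the log2 of Gys2 minus the log2 of Gys1 averaged -3.18 ± 0.59 in HF pregnant mice and -0.94 ± 0.49 in control pregnant mice (SD, n = 5 each). The difference between these means was -2.24. It averaged -1.17 ± 0.55 in HF non pregnant mice and -0.85 ± 0.59 in control non pregnant mice, a difference of -0.32. With intensities under 100 set to 100 the differences were -1.25 in pregnant and -0.16 in non pregnant mice. These values are a description with no test, because Gys2 was taken up for its diet difference in these arrays.

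**Figure D3:**
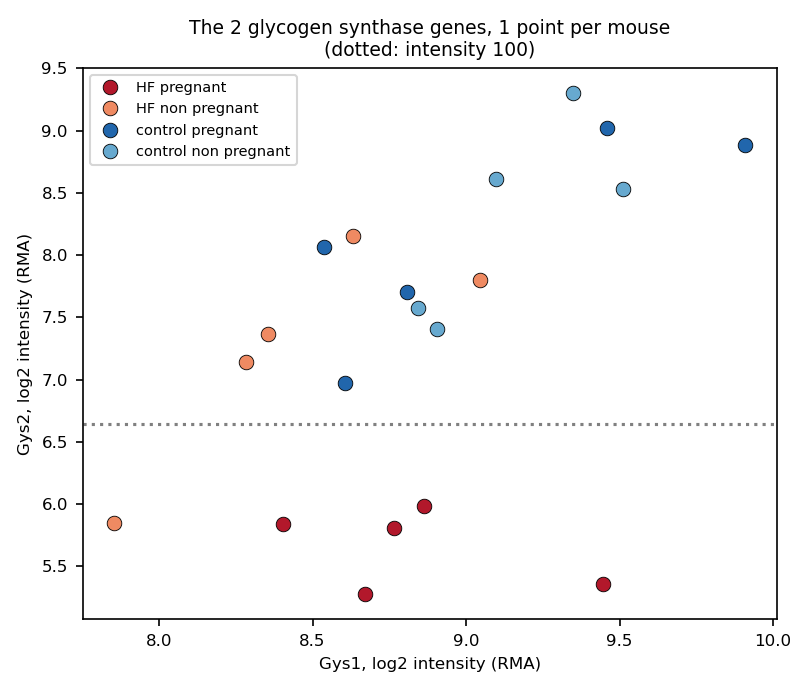
Log2 intensity of Gys2 (vertical axis) against that of Gys1 (horizontal axis), 1 point per mouse in 4 groups of 5, with a dotted line at an intensity of 100 units for Gys2. The HF pregnant mice lie under the line for Gys2, at 38.8 to 63.1 units, at Gys1 intensities of 339 to 697 units that overlap those of the control pregnant mice.

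Pcx, whose enzyme makes oxaloacetate from pyruvate, was measured at high intensity. It was at 3045.4, 4558, 3814, 3045.6 and 7029 units in HF pregnant mice, against 13032, 6725, 12289, 6271 and 7798 units in control pregnant mice. It was at 4774, 5380.3, 4821, 8047 and 2149 units in HF non pregnant mice, against 6504, 6014, 10194, 9478 and 10287 units in control non pregnant mice. In each comparison 4 of 5 HF mice lay below every control mouse, the exceptions being HF pregnant mouse 5 and HF non pregnant mouse 4. The log2 fold change was -1.11 ± 0.32 (adjusted p = 0.1738) between the pregnant groups and -0.84 ± 0.32 (adjusted p = 0.2811) between the non pregnant groups. Averaged over pregnancy Pcx was 1.96-fold lower with HF feeding (log2 -0.97 ± 0.22, adjusted p = 0.04029). That call was lost without any of 13 single mice (log2 -0.99 to -0.83, adjusted p 0.05337 to 0.1012), namely HF pregnant mice 1 to 4, HF non pregnant mice 1, 3 and 5, control pregnant mice 1, 3 and 5, and control non pregnant mice 3, 4 and 5.

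Pcx is also a control gene of the array, with 4 further probe sets placed along its transcript. Their differences between HF pregnant and control pregnant mice were -1.01 at the 5′ end, -0.90 and -1.49 in the middle and -1.15 at the 3′ end, and without pregnancy, HF against control, -0.67, -0.66, -1.002 and -0.88. All 4 thus had the sign of the gene's own probe set in both comparisons. The gap between the 3′ and 5′ sets, which grows as RNA is broken or copied short, was 4.52 ± 0.29 in HF pregnant mice, 4.46 ± 0.26 in HF non pregnant mice, 4.66 ± 0.30 in control pregnant mice and 4.66 ± 0.33 in control non pregnant mice (log2, SD, n = 5 each), which differ by less than the spread between mice. The same gap for Gapdh was 0.30 ± 0.08 in HF pregnant mice, 0.20 ± 0.05 in HF non pregnant mice, 0.12 ± 0.09 in control pregnant mice and 0.18 ± 0.19 in control non pregnant mice, so that in pregnant mice it was wider with HF feeding by more than either SD. For the actin control it was 0.95 ± 0.12 in HF pregnant mice, 0.88 ± 0.08 in HF non pregnant mice, 1.12 ± 0.40 in control pregnant mice and 1.03 ± 0.13 in control non pregnant mice, all within the spread of control pregnant mice. The part of RNA quality in the diet differences was not tested.

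**Figure D4:**
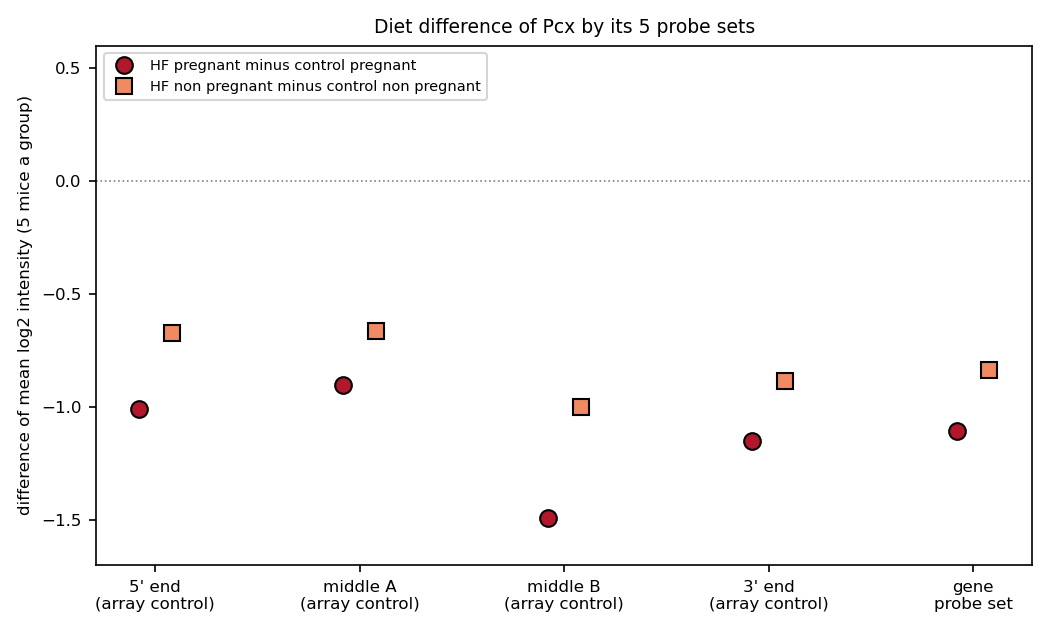
Difference of mean log2 intensity of Pcx between HF and control mice (vertical axis, 5 mice a group) for the 4 array control sets from the 5′ to the 3′ end and for the gene's own probe set, in pregnant mice (circles) and non pregnant mice (squares). All 10 differences are below 0, from -1.49 to -0.66.

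Pck1, whose enzyme is central to glyceroneogenesis in fat, was the 1 gene of the 8 with a higher mean in HF pregnant mice. Its intensity was 4951, 7653, 7777, 5809 and 10723 units in HF pregnant mice, against 6548, 3756, 5542, 3036 and 5440.3 units in control pregnant mice. It was 6173, 7058, 5089.8, 4318 and 3065 units in HF non pregnant mice, against 7082, 6379, 3757, 5025 and 3669 units in control non pregnant mice. HF pregnant mice 2, 3 and 5 were above every control pregnant mouse, and the non pregnant groups covered the same range. The log2 fold change was 0.61 ± 0.27 between the pregnant groups (unadjusted p = 0.03646, adjusted p = 0.3561) and -0.02 ± 0.27 between the non pregnant groups (adjusted p = 0.9654). Relative to HF non pregnant mice, HF pregnant mice were at 0.53 ± 0.27 (adjusted p = 0.9999). The difference between diets in the response to pregnancy was 0.62 ± 0.38 with a 95% interval of -0.17 to 1.42 (adjusted p = 0.9332), an interval that includes 0. A second probe set gave 0.55 and -0.17 for the diet difference in pregnant and non pregnant mice.

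Pklr lay close to 100 units in every mouse, at 87.3 to 104 units in HF pregnant mice against 98.8 to 129.9 in control pregnant mice. It lay at 84.6 to 101 units in HF non pregnant mice, against 99.8 to 131 in control non pregnant mice. The log2 fold changes were -0.19 ± 0.09 (adjusted p = 0.3999) and -0.26 ± 0.09 (adjusted p = 0.2811). Its other 2 probe sets exceeded 100 units in no mouse and had r = 0.68 and 0.17 with the first over 20 arrays, so the probe sets did not follow each other as those of Slc2a4 did.

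When the 4 groups were put in order of their mean for each gene, neighbouring groups overlapped in range in every case. A step larger than the larger SD of its neighbours was found between HF non pregnant and control pregnant mice for Slc2a4 (0.71) and Slc2a5 (1.30), between HF and control mice without pregnancy for Pcx (0.84), between HF and control mice with pregnancy for Pklr (0.19), and between HF pregnant mice and the next group, control non pregnant, for Pck1 (0.51). For Hk2 and Gys1 no step was that large. The large step in the means thus lay between the HF pair and the control pair for Slc2a4, Slc2a5, Pcx and Pklr. For Gys2 and Pck1 it lay next to HF pregnant mice, which had the lowest mean of Gys2 and the highest of Pck1. Setting a step against an SD is not a test, so separate levels are not shown. Set against HF mice without pregnancy, HF pregnant mice did not pass for either gene (limma, adjusted p = 0.4723 for Gys2 and 0.9999 for Pck1).

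Within groups, 6 of the 8 genes went up and down together from mouse to mouse. As deviations from group means over 20 mice, the 15 pairs among Slc2a4, Slc2a5, Hk2, Gys1, Gys2 and Pcx had Pearson r from 0.63 to 0.91 (median 0.75) and Spearman rho from 0.72 to 0.93. All 15 had an adjusted p of Pearson's r between 0.00028 and 0.01077 (permutation test, 100000 resamples, adjusted over 28 pairs), and r stayed between 0.56 and 0.91 without the 2 mice farthest from the median. The share of all gene pairs with such r was not counted, so these pairs are not shown to stand out. Genes outside the 8, taken as nearest out of 10603, had higher within-group r, such as Bckdk with Gys1 (0.97) and Gpx4 with Pcx (0.97). The 7 pairs with Pck1 had r from -0.20 to 0.46 and the 6 further pairs with Pklr 0.09 to 0.42, and 0 of these 13 passed. HF non pregnant mouse 5 was lowest in its group for 5 of the 6 genes, HF non pregnant mouse 4 highest for 5, and control non pregnant mouse 2 lowest for 5. Control pregnant mice 1 and 3 were above their group mean for all 6.

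Markers of adipocytes, brown fat and immune cells moved with several of these genes. Of 8 markers listed, 6 had a probe set of 1 symbol and all 6 passed the filter, with summed intensities of 58561 to 77622 units in HF pregnant mice, 46494 to 80487 units in HF non pregnant mice, 58117 to 86818 units in control pregnant mice and 69997 to 77321 units in control non pregnant mice. Their mean had within-group r of 0.67 with Slc2a4, 0.70 with Hk2, 0.73 with Gys1, 0.55 with Gys2, 0.72 with Pck1 and 0.71 with Pcx, and 0.16 with both Slc2a5 and Pklr (20 mice, a description). With the adipocyte mean as a covariate, chosen after seeing the data, the same 4 genes passed in the average over pregnancy (Slc2a4 -0.89, Slc2a5 -1.54, Gys2 -1.54, Pcx -0.78). Gys2 then was at -2.25 between the pregnant groups (adjusted p = 0.007848), and Pck1 at 0.78 (adjusted p = 0.05481). Of 8 brown fat markers, all on the array, 4 passed the filter, and the summed intensities of the 8 were 839 to 2176 units in HF pregnant mice, 714 to 3344 units in HF non pregnant mice, 1257 to 3471 units in control pregnant mice and 1706 to 3778 units in control non pregnant mice. The mean of the 4 had within-group r of 0.81 with Slc2a4, 0.80 with Pcx, 0.75 with Gys1, 0.69 with Slc2a5, and 0.67 with both Hk2 and Gys2. Ucp1, which defines brown fat, exceeded 100 units in no mouse (highest 66.9). Lymphocyte (B and T cell) markers ran the other way, their mean having r of -0.82 with Pck1, -0.64 with Gys1, -0.54 with Pcx, -0.53 with Hk2 and -0.49 with Slc2a4, but 0.01 with Slc2a5. Of 12 listed, 10 were on the array and passed, with sums of 1361 to 10379 units in HF pregnant mice, 2982 to 21936 units in HF non pregnant mice, 1019.9 to 14576 units in control pregnant mice and 1369.6 to 7522 units in control non pregnant mice. Macrophage markers, of which 7 of 8 passed, had r of -0.64 with Gys1 and between -0.50 and -0.27 with the other 7 genes. The sums of the 8 were 13858 to 19565 units in HF pregnant mice, 13480.0 to 19935 units in HF non pregnant mice, 7399 to 19038 units in control pregnant mice and 11613 to 15890.0 units in control non pregnant mice. The covariate fit tested diet differences with the adipocyte mean in the model, not the part of any markers in them. That part was not tested. Without the 2 arrays high in pancreatic genes, also chosen after seeing the data, Slc2a4, Gys2 and Pcx passed in the average at -1.13, -1.72 and -0.996, Pklr passed at -0.25, and Slc2a5 fell under the filter. Pklr exceeded 100 units in 1 mouse of each HF group, so it needed control mice to pass the filter.

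The genes around the 8 in the pathway were counted by list, with lists written when earlier results of these arrays were known, and all values here are for HF against control averaged over pregnancy. Over all 10603 genes tested the median log2 fold change was 0.03, and the counts stand beside the 1.11% of all probe sets called lower and the 0.136% called higher. Of 6 hexose transporters tested (14 listed) only Slc2a4 and Slc2a5 passed, both lower, with a list median of -0.05. Of 4 genes of hexose phosphorylation and fructose breakdown tested (10 listed) none passed in limma, 1 of them being Hk2 described above. Of 16 genes of glycolysis after hexokinase (20 listed, median -0.22) 3 fell and none rose, against 1.11% and 0.136% of all probe sets. These were Pkm, the pyruvate kinase of most tissues (-0.90 ± 0.18, adjusted p = 0.02515), Aldoa, an aldolase (-0.65 ± 0.13, adjusted p = 0.024), and Ldha, a lactate dehydrogenase subunit (-0.58 ± 0.13, adjusted p = 0.03836).

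Of 22 glycogen genes tested (29 listed, median -0.16), 3 fell and none rose, again beside 1.11% and 0.136% of all probe sets. Beside Gys2 these were Pygl, the liver form of glycogen phosphorylase, which breaks glycogen down (-1.52 ± 0.27, adjusted p = 0.01716), and Gbe1, the branching enzyme that glycogen synthesis needs (-1.37 ± 0.27, adjusted p = 0.02318). The other 19 did not pass. Pygl had log2 means of 10.45 ± 0.37 in HF pregnant and 10.86 ± 0.76 in HF non pregnant mice, against 12.19 ± 0.62 in control pregnant mice and 12.16 ± 0.78 in control non pregnant mice (SD, n = 5 each).

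Of 21 genes of pyruvate and glycerol 3-phosphate tested (26 listed, median -0.29) 7 fell and none rose, where all probe sets had 1.11% lower and 0.136% higher. Mpc1, a subunit of the carrier that brings pyruvate into mitochondria, had the lowest adjusted p (-1.36 ± 0.21, adjusted p = 0.005544). It was also the 1 gene of this list that passed between the pregnant groups (-1.804 ± 0.30, adjusted p = 0.01065). Its log2 means were 11.44 ± 0.15 in HF pregnant and 12.09 ± 0.65 in HF non pregnant mice, against 13.24 ± 0.36 in control pregnant mice and 13.00 ± 0.64 in control non pregnant mice (SD, n = 5 each). Pdha1, a subunit of pyruvate dehydrogenase, fell (-0.78 ± 0.16, adjusted p = 0.02491), and so did Pdk1, a kinase that inhibits that enzyme (-1.09 ± 0.22, adjusted p = 0.02476). Gpd2, the mitochondrial glycerol 3-phosphate dehydrogenase, fell (-0.99 ± 0.22, adjusted p = 0.03401). The others, named after their values were seen, were Gpd1, which makes glycerol 3-phosphate in the cytosol (-1.40, adjusted p = 0.0358), and Pdhb, the other subunit of the dehydrogenase component of Pdha1 (-0.96, adjusted p = 0.03401). Pcx completes the 7, while Pck1 of the same list was at 0.29 ± 0.19 (adjusted p = 0.2795).

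None of 13 genes of GLUT4 vesicle traffic tested (14 listed) passed in limma, with a median of 0.05 near that of all genes. Of 13 regulators tested (14 listed, median -0.04) none fell and 1 rose (all probe sets 1.11% and 0.136%), Foxo1, a forkhead factor known to respond to insulin (0.33 ± 0.08, adjusted p = 0.04907). Its log2 means were 10.37 ± 0.15 in HF pregnant and 10.28 ± 0.21 in HF non pregnant mice, against 10.15 ± 0.10 in control pregnant mice and 9.85 ± 0.22 in control non pregnant mice (SD, n = 5 each).

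**Figure D5:**
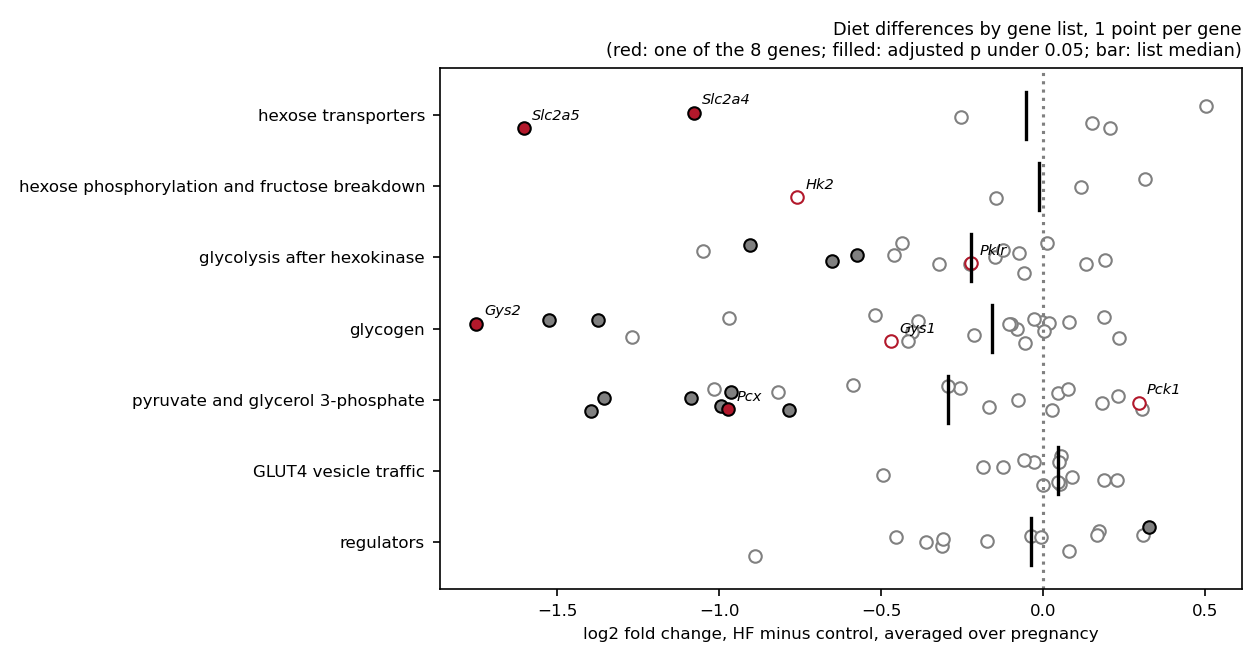
Log2 fold change of HF against control averaged over pregnancy (horizontal axis) for the tested genes of 7 lists, 1 point per gene with the 8 genes in red; filled points have an adjusted p under 0.05 and bars are list medians. The filled points lie below 0 except for Foxo1 among the regulators at 0.33, and Pck1 lies above 0 without passing.

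The genes most like each of the 8 across the 20 arrays, out of 10603, are given by Pearson r as a description, since all share the arrays, the groups and the mix of cells. For Slc2a4 they were Tlcd3b (0.97), Mapk8ip1 (0.97) and Eif4e3 (0.97), and for Slc2a5 Gpd2 (0.96), Tmem79 (0.95) and Acbd6 (0.95). Gpd2 thus appears both as a gene of glycerol 3-phosphate and as the nearest to the fructose transporter. For Gys2 they were Acss2 (0.97), which activates acetate, Fabp5 (0.97), a fatty acid binding protein, and Nsdhl (0.96), an enzyme of cholesterol synthesis. Those for Gys1 were Bckdk (0.97), Uqcrfs1 (0.97) and Dhrs7b (0.97), and those for Hk2 Alg9 (0.95), Tcaim (0.94) and Dld (0.94), the last encoding a subunit of pyruvate dehydrogenase. Pcx was closest to Gpx4 (0.98), Nudt7 (0.98) and Jazf1 (0.97). Pck1 was closest to Prps1 (0.91), Lrp1 (0.91) and Sec16b (0.91), and Pklr to Tmc8 (0.84), Cog8 (0.82) and Lce3b (0.81), the lowest r of the 8. None of these 24 genes was named for more than 1 of the 8.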

How the data were processed

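Affymetrix mouse arrays carried RNA of visceral fat, 1 array per mouse, from 20 mice in 4 groups of 5 taken from the labels. The labels name Trizol for RNA extraction and the study's methods name columns, and no date of scanning or batch is stated. The authors processed the arrays by robust multi-array average (RMA) with the affy package in R 2.8.0, and the deposited table holds 1 linear intensity for each of 45101 probe sets. RMA gives the probe values of all arrays the same distribution before they are combined into probe sets. A shift common to most genes would therefore not be seen, although the probe set values still differ somewhat in distribution. The mice came from several litters by the study's methods, and the number of arrays limits the precision.

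Log2 was taken of the intensities as deposited. The manufacturer's 64 control probe sets were left out of the tests, and 19802 sets above 100 in at least 5 of 20 arrays were kept (43.97% of the others), of which 17322 carry 1 symbol, 531 several and 1949 none. Names came from the platform annotation updated through RefSeq. Group means were fitted with limma 3.58.1 in R 4.3.3 over all 20 arrays, 7 comparisons were read from the fit, and p-values were adjusted by Benjamini-Hochberg over all kept sets at 0.05. The 4 groups share 1 estimate of the spread. Gys2 minus Gys1 is given without its planned test, since Gys2 was chosen for its diet difference, and relations between genes were tested by permutation in scipy 1.17.1 (Python 3.11.15). The fit was tested on simulated data.

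Named genes are the 8, up to 4 called genes of each list with the smallest adjusted p, the 3 genes most like each of the 8, and some cell type markers. The plan was to name the marker with the widest range in each list, and the markers named do not follow it. The 8 genes and all lists were chosen with earlier results of these data known. The labels name nothing that same-numbered mice share beyond the number, and whether the number marks a batch is not stated. Alternatives were no filter, array weights, repeated quantile normalization, intensities under 100 set to 100, a replicate block, each mouse left out, and a call by unadjusted p under 0.05 and a change of 1.5-fold, among others.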

Additional observations from a re-analysis of the deposited data

How the results depend on the processing

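Gys2 passed between the pregnant groups in 25 of 33 alternatives and in the average over pregnancy in 31 of 32, Slc2a4 in 19 of 32, Slc2a5 in 17 of the 25 that tested it and Pcx in 17 of 32 (average). In the alternatives below the cause of a change was not tested. The number of the 8 genes called, 1 in HF against control pregnant mice, was 0 to 1 without single mice, 3 with array weights, 0 with intensities under 100 set to 100, and 6 when calling by unadjusted p under 0.05 and a change of 1.5-fold. The 4 called in the average over pregnancy became 1 to 6 without single mice, 2 with no filter and 7 with array weights. None was called in the other comparisons. With array weights 7 were called for HF against control non pregnant mice, 2 for pregnancy on the HF diet and 2 for pregnancy averaged over diet, and at the unadjusted level the counts were 5, 1 and 1, with 1 for the difference between diets in the response to pregnancy. Of all probe sets, settings other than leaving out mice called up to 7489, 2679, 1706 and 177 in these comparisons, in the same order. With the replicate number as a block, 0 of the 8 were called between the pregnant groups and 0 in the average. Each number occurs in every group, so this block cannot change a difference of group means. The same -2.24 for Gys2 minus Gys1 is therefore no sign of stability. Deviations of same-numbered arrays had a median r of -0.16 over 30 pairs (range -0.75 to 0.67, 10 over 0.1), and 2 of 20 arrays correlated best with their own number. Whether the number marks a batch was not tested. The probe sets called numbered 38 of 19802 between the pregnant groups (15 to 62 without single mice, 17 to 1365 in other settings) and 246 in the average (42 to 4309, and 19 to 9136). These ranges are not split by setting, and some settings called a large part of all probe sets. The counts of the 8 genes by setting therefore do not show that these genes stand out.

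Values that changed sign were small and not called. With array weights they were Pck1 in HF against control non pregnant mice (0.021), Slc2a5 with pregnancy on the HF diet (0.070), and Pklr (0.055) and Pcx (-0.12) in control pregnant against control non pregnant mice. Repeated quantile normalization gave 0.013 for Pck1 in HF against control non pregnant mice, and setting values under 100 to 100 gave -0.0020 for Pklr in pregnancy averaged over diet. Without the 2 arrays high in pancreatic genes, Hk2 (0.12) and Gys1 (0.044) in control pregnant against control non pregnant mice, Slc2a4 in the difference between diets in the response to pregnancy (-0.10) and Pcx in pregnancy averaged over diet (0.025) changed sign. With the adipocyte covariate these were Pck1 in HF against control non pregnant mice (0.13), Hk2 (0.11) and Gys1 (0.0083) in control pregnant against control non pregnant mice, and Hk2 (0.0070) and Pcx (0.067) in pregnancy averaged over diet. Without single mice the ranges for control pregnant against control non pregnant mice were -0.29 to 0.054 for Gys1, -0.38 to 0.13 for Gys2, -0.36 to 0.22 for Hk2, -0.22 to 0.061 for Pck1, -0.054 to 0.21 for Pcx and -0.079 to 0.051 for Pklr. They were -0.15 to 0.15 for Pck1 in HF against control non pregnant mice, -0.46 to 0.015 for Pcx and -0.30 to 0.11 for Slc2a5 with pregnancy on the HF diet, -0.19 to 0.051 for Pcx and -0.0095 to 0.056 for Pklr in pregnancy averaged over diet, and -0.50 to 0.095 for Hk2 and -0.12 to 0.30 for Slc2a4 in the difference between diets in the response to pregnancy. Signal near or under 100 units limits Slc2a5, Pklr and Gys2 in HF pregnant mice.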
